A study of Mus musculus with 8 samples.

Results

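Prostanoids are lipid mediators made from arachidonic acid, and each acts through its own receptors of the G protein-coupled class. The prostanoid receptor genes measured here were Ptger1, Ptger2, Ptger3, Ptger4, Ptgir, Ptgdr, Ptgdr2, Ptgfr and Tbxa2r. They were taken as the gene probes whose transcript belongs to 1 of these 9 genes, which gave 10 of the 39429 gene probes on each array. Ptger3 had 2 probes, A_51_P520718 and A_55_P1975481, and every other receptor had 1.

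The samples were macrophages isolated from male mice given LPS, a bacterial endotoxin. The EP2KO group came from mice lacking EP2, the prostaglandin E2 receptor encoded by Ptger2, and the WT group from wild-type mice. Each group had 4 arrays (EP2KO 1 to 4 and WT 1 to 4), with 1 RNA sample on each 1-colour Agilent array. All groups had received LPS, so no unstimulated level is available for comparison. The labels do not give the strain, the age, the LPS dose or time, the site the cells came from, the design of the deleted allele, or whether each replicate was its own mouse. The p-values therefore cover the spread among these 8 arrays and no more. In bulk RNA, fewer cells of a type and less RNA per cell cannot be told apart.

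Prostaglandin E2 binds EP1 (Ptger1), EP2 (Ptger2), EP3 (Ptger3) and EP4 (Ptger4). Prostacyclin binds IP (Ptgir), prostaglandin D2 binds DP1 (Ptgdr) and DP2 (Ptgdr2), prostaglandin F2alpha binds FP (Ptgfr), and thromboxane A2 binds TP (Tbxa2r). EP2, EP4, IP and DP1 couple mainly to the stimulatory G protein Gs, which raises cAMP. EP3 and DP2 couple mainly to Gi, which lowers cAMP, and EP1, FP and TP mainly raise calcium. In macrophages the Gs-coupled receptors EP2 and EP4 are known for dampening parts of the inflammatory response.

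The sequences upstream of 4 Gs-coupled receptor genes are shown because 3 of them were detected on every array (Ptger2, Ptger4 and Ptgir), while Ptgdr, the coding gene next to Ptger2, was not. In the gene order of GRCm38.p6, 0 coding genes lie between Ptgdr and Ptger2 on chromosome 14. The sequences are the 250 bases before the RefSeq start, read in the direction of the gene, and capitals mark matches to the GC box GGGCGG on either strand.
Ptger2 (GRCm38.p6, chr14:44987861-44988110, plus strand): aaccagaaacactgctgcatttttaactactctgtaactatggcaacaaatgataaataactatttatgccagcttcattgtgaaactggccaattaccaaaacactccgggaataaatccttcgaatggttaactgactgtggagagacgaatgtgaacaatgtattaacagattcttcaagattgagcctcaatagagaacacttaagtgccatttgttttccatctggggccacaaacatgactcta
Ptger4 (GRCm38.p6, chr15:5244188-5244437, minus strand): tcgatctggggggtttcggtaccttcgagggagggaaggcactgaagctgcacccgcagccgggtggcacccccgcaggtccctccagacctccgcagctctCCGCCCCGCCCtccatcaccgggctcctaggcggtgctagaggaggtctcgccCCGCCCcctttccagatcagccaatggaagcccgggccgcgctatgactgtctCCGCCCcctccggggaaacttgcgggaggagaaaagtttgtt
Ptgir (GRCm38.p6, chr7:16906240-16906489, plus strand): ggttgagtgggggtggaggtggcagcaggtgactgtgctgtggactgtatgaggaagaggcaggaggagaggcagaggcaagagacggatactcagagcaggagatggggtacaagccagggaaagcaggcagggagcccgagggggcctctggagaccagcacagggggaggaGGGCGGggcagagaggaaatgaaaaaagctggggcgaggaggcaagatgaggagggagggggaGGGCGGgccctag
Ptgdr (GRCm38.p6, chr14:44859376-44859625, minus strand): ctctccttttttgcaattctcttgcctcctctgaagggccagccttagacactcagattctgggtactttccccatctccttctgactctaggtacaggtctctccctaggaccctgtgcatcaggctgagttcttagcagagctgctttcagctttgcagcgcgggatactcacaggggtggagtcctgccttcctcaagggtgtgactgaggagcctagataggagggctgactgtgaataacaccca

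The Ptger2 window was 38.0% G and C, against 66.8% for Ptger4, 63.6% for Ptgir and 53.2% for Ptgdr. The median over 32851 windows of the same length was 52.4%. GC boxes numbered 4 in the Ptger4 window and 2 in that of Ptgir, and 32.7% of all windows hold at least 1. Other motifs were searched on both strands. The cAMP response element was searched as TGACGTCA and as its short form TGACG, which the long form contains. An NF-kB motif was included, and the AP-1 site was searched as TGANTCA. The core of the site of PU.1, a myeloid transcription factor, was searched as GAGGAA. The TATA box was searched as TATAAA. Of these, the Ptger2 and Ptger4 windows held none, the Ptgir window held 2 matches to GAGGAA, and the Ptgdr window held 1 to GAGGAA and 1 to the NF-kB motif. Among all windows, GAGGAA occurs in 23.3%, TGACG in 17.8%, the NF-kB motif in 17.6%, TATAAA in 12.4%, TGANTCA in 6.75% and TGACGTCA in 1.55%. A match in letters is a description of the window and no evidence of binding. RefSeq windows were matched for 8 of the 9 receptor genes; Ptger1 is named only.

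Array slides, each scanned on its own day, numbered 2. Slide 1 held EP2KO 1, EP2KO 2, WT 1 and WT 2, and slide 2 held EP2KO 3, EP2KO 4, WT 3 and WT 4. On both slides EP2KO took positions 3 and 4, and WT positions 1 and 2. Position on the slide and genotype cannot be told apart. The 75th percentile of the signal, to which each array was scaled, ran from 986.9 to 1507.9, and between 25554 and 32142 probes were well above background. The macrophage label was checked against 10 markers, of which 9 had a named probe, and all 9 were detected on all 8 arrays. Their summed signal was 269 to 329 times the 75th percentile in EP2KO and 209 to 357 times in WT. Genes of other cell types were detected too: all 12 fibroblast and mesothelial markers and all 8 B cell markers on every array, and at least 14 of the 15 T and NK cell markers with a probe.

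Of the 9 receptors, Ptger2, Ptger4, Ptgir, Tbxa2r and Ptger3 (by its brighter probe, A_51_P520718) were well above background on 8 of 8 arrays. Ptger1 was so on 7 arrays, Ptgdr2 on 5 and Ptgfr on 4, and Ptgdr was not well above background on any. The fit over all features took each probe that the scanner called well above background on 4 of 4 EP2KO or 4 of 4 WT arrays, with the brightest one standing for its gene. By this filter 7 receptors were tested, and Ptger1 and Ptgdr2 passed only through WT, where they had the higher mean. Ptgfr, Ptgdr and the dimmer Ptger3 probe A_55_P1975481 are given as values. The number of arrays limits the precision.

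**Figure D1:**
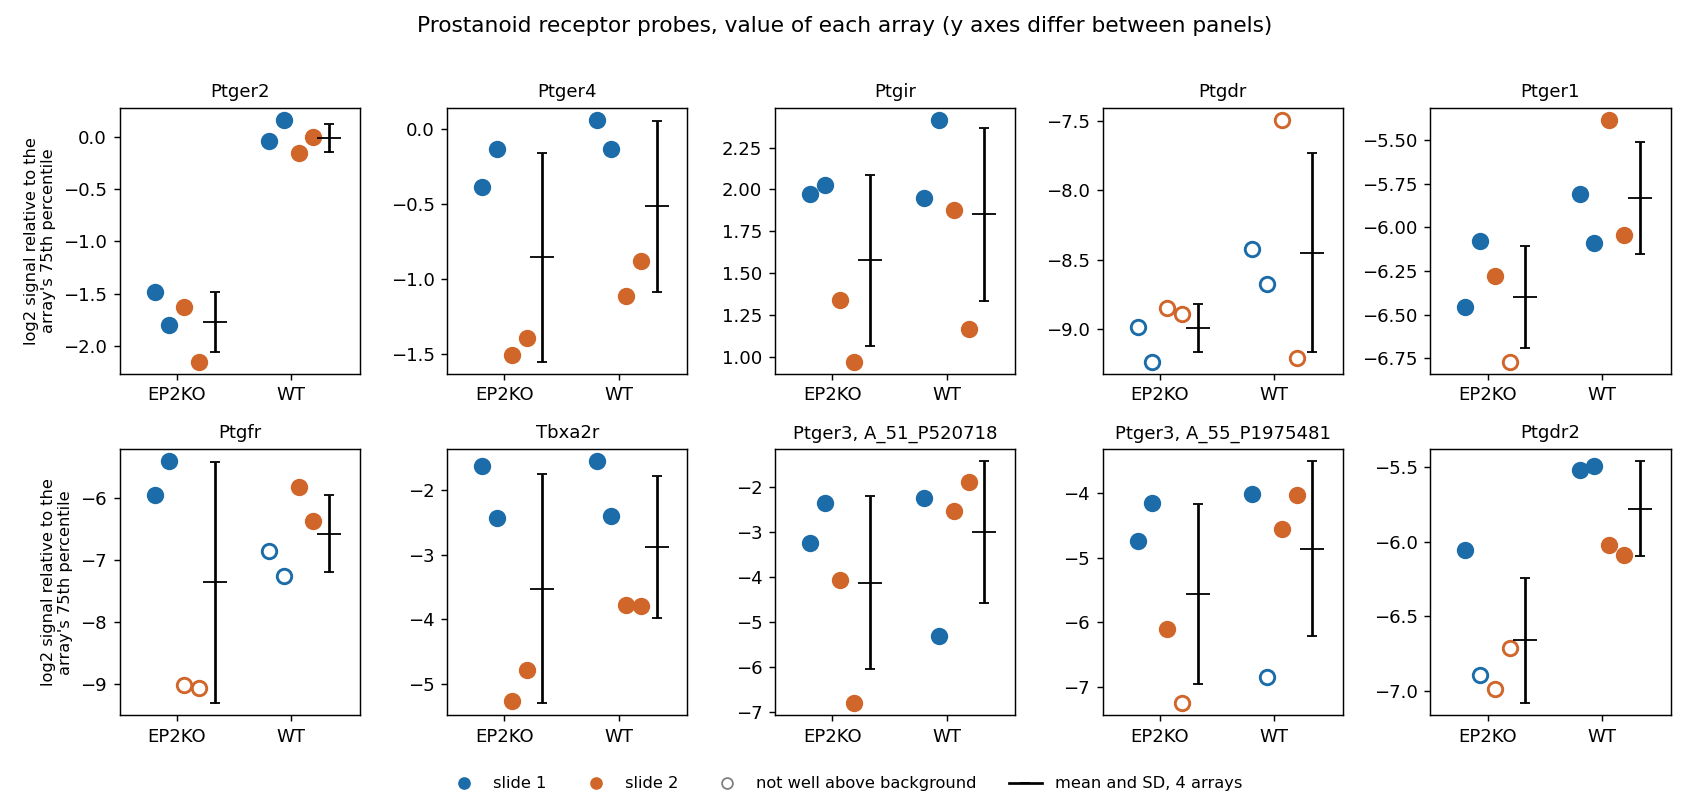
Log2 signal of each receptor probe relative to the 75th percentile of its array, with 1 point per array, EP2KO left of WT, coloured by slide. Open points were not well above background, bars give mean and SD of 4 arrays, and y axes differ between panels. For Ptger2 the EP2KO and WT points do not overlap, and for Ptger4 and Tbxa2r both genotypes are lower on slide 2.

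Ptger2, the targeted gene, was measured by probe A_51_P249215 (transcript NM_008964). Its processed signal was 439, 361, 362 and 312 on EP2KO 1 to 4, against 1060, 1110, 1360 and 1470 on WT 1 to 4. All EP2KO signals lay below all WT signals. The error estimated by the scanner software for these spots was 31.3 to 43.9 in EP2KO and 106 to 147 in WT. The signal was 9.97 to 9.99 times its error in EP2KO and 10 times in WT. The brighter Ptgir spots also gave 10, so this ratio says little about Ptger2 itself. Local background was 20 to 27 in EP2KO and 23 to 27 in WT. Relative to the array's 75th percentile, the log2 signal averaged -1.77 ± 0.29 in EP2KO and -0.01 ± 0.13 in WT (SD, n = 4 each), a 3.39-fold lower signal in EP2KO.

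The log2 difference in Ptger2 was -1.76 ± 0.17 (SE of the limma fit), with a 95% interval of -2.17 to -1.36. Adjusted over all 20736 features, the limma p was 0.0615, above the threshold of 0.05. Blocking on the slide gave 0.0328, and blocking on the replicate number gave 0.217. An exact two-sided permutation test over the 70 arrangements of the arrays gave p = 0.0286, the smallest it can give. Only 0.00965% of features (2 probes with no gene name, A_55_P2034481 and A_55_P1985422) passed without a block, and 0.0193% with the slide as a block. EP2KO and WT values did not overlap for 1.38% of features, and EP2KO was the lower group for 0.95%. By p, Ptger2 had rank 3 among all features, both unblocked and blocked on the slide, and rank 13 with the replicate block. Within slides the difference was -1.71 on slide 1 and -1.82 on slide 2, and the test of the difference between slides gave -0.11 ± 0.31 (SE, limma adjusted p = 0.852). Neither the labels nor the files say whether the probe lies inside the deleted part of the gene. What the signal left in EP2KO measures was not tested.

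Ptger4 encodes EP4, the other Gs-coupled receptor for prostaglandin E2. Its processed signal (probe A_51_P207988) was 940, 1150, 395 and 531 on EP2KO 1 to 4 and 1140, 902, 699 and 798 on WT 1 to 4. The genotypes overlapped, and in each of them both slide 1 arrays were above both slide 2 arrays. Log2 values relative to the 75th percentile averaged -0.85 ± 0.70 in EP2KO and -0.52 ± 0.57 in WT (SD, n = 4 each). The difference was -0.34 ± 0.41 (SE, limma adjusted p = 1), and its 95% interval in fold, EP2KO over WT, ran from 0.411 to 1.52. With the slide as a block the SE was 0.12 and the interval ran from 0.651 to 0.96 (limma adjusted p = 0.561). The exact permutation test gave p = 0.514. The difference was -0.23 on slide 1 and -0.45 on slide 2. It ran from -0.58 (without EP2KO 2) to -0.12 (without EP2KO 3) with single arrays left out, and was -0.20 with scaling to the median. No higher Ptger4 signal in EP2KO was detected on either slide, and the unblocked interval allows up to 1.52-fold.

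Ptgir encodes IP, the prostacyclin receptor. Probe A_55_P1994309 had processed signals of 4820, 5120, 2840 and 2720 on EP2KO 1 to 4 and of 4220, 5260, 5540 and 3290 on WT 1 to 4. EP2KO 3 and EP2KO 4 were below every WT array in raw signal, but after scaling EP2KO 3 (253% of the 75th percentile) was above WT 4 (224%). On the scaled log2 values the difference was -0.28 ± 0.34 (SE, limma adjusted p = 1; 0.938 blocked on the slide), and the exact permutation p was 0.486. Its 95% interval in fold, EP2KO over WT, was 0.482 to 1.41. With single arrays left out the Ptgir difference ran from -0.51 (without WT 4) to -0.07 (without EP2KO 4), and it was -0.13 with scaling to the median. Ptgdr, which encodes the prostaglandin D2 receptor DP1, had signals of 2.09 to 2.93 in EP2KO and 2.41 to 8.36 in WT. The lowest signal of any probe well above background was 7.98 to 12.22 depending on the array, so Ptgdr was not detectable at this signal and no fold is given.

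The receptors that mainly signal through calcium were Ptger1, Ptgfr and Tbxa2r. Ptger1 (EP1, probe A_55_P1995473) had signals of 14, 18.6, 14.5 and 12.7 on EP2KO 1 to 4 and of 19.5, 14.5, 36.1 and 22.3 on WT 1 to 4. EP2KO 4 was not well above background, and the highest EP2KO array was above the lowest WT array also after scaling. Its difference was -0.57 ± 0.22 (SE, n = 4 each), with an unadjusted limma p of 0.0319 and an adjusted p of 1. Ptger1 had passed the filter only through WT, the higher group, so these p-values are a description and support nothing. An unadjusted p under 0.05 was reached by 1.98% of all features, by 7.34% with the slide as a block and by 5.45% with the replicate block. The scanner's error estimates of 2.66 to 3.02 in EP2KO and 2.82 to 4.49 in WT are a sizeable part of these signals. With quantile normalization the Ptger1 difference was -0.27.

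Tbxa2r encodes TP, the thromboxane receptor of platelets and smooth muscle, which macrophages also express. Its probe A_52_P55772 had signals of 401, 233, 29.2 and 50.4 on EP2KO 1 to 4, against 372, 188, 110 and 106 on WT 1 to 4. The slides parted these values more than the genotypes did: slide 2 was lower than slide 1 by 2.41 ± 0.34 log2 units with genotype in the model (log2 difference -2.41, SE, limma adjusted p = 0.00152). The difference between EP2KO and WT was -0.65 ± 0.92 (limma adjusted p = 1; 0.798 blocked on the slide), the exact permutation p was 0.486 and the 95% interval ran from -2.78 to 1.49. With single arrays left out the difference ran from -1.28 (without EP2KO 1) to -0.07 (without EP2KO 3). On slide 1 the difference was -0.05 and on slide 2 it was -1.24; the test between slides gave -1.19 ± 0.53 (limma adjusted p = 0.262). Platelet and megakaryocyte markers, measured as another source of Tbxa2r, summed to 52.8 to 72.6 times the 75th percentile in EP2KO and 46.1 to 64.5 times in WT, with 5 to 7 and 4 to 7 of 7 detected. Most of that sum was Pf4, a platelet chemokine that macrophages also make, whose log2 signal relative to the 75th percentile averaged 6.01 in EP2KO and 5.74 in WT. Gp1ba, a platelet adhesion receptor, averaged -5.11 in EP2KO and -7.04 in WT, and Ppbp, another platelet chemokine, -4.65 and -4.60. Gp1ba was well above background on 4 of 4 EP2KO and 2 of 4 WT arrays. It thus passed the filter only through EP2KO, and its WT mean rests partly on background. Treml1 averaged -1.18 in EP2KO and -1.64 in WT, and Itga2b -5.62 and -5.72. Smooth muscle markers summed to 2.4, 3.96, 0.924 and 0.764 times the 75th percentile on EP2KO 1 to 4 and to 3.14, 0.869, 1.68 and 1.56 times on WT 1 to 4, with 3 or 4 of 6 detected in EP2KO and 3 to 5 in WT. EP2KO 3 and EP2KO 4, the lowest arrays in Tbxa2r, were 2 of the 3 lowest in these markers. The part of platelets and smooth muscle in the Tbxa2r values was not tested.

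Ptger4 and Ptgir were also lower on slide 2. With genotype in the model, the slide 2 minus slide 1 difference was -1.07 ± 0.12 for Ptger4 (limma adjusted p = 0.000612) and -0.75 ± 0.20 for Ptgir (0.0189). Of all features 43.2% were called between the slides, 18.2% lower and 25.1% higher on slide 2, so 3 of the 7 tested receptors called lower stands against that background. For Ptger2 the slide difference was -0.19 ± 0.15 (limma adjusted p = 0.329). It was -0.01 ± 0.21 for Ptger1, -0.53 ± 1.13 for Ptger3 and -0.46 ± 0.19 for Ptgdr2, with limma adjusted p of 0.975, 0.732 and 0.084. Markers of lymphocytes, eosinophils and mast cells were lower on slide 2 too. B cell markers summed to 95, 57.1, 5.6 and 8.76 times the 75th percentile on EP2KO 1 to 4 and to 91.1, 74.2, 8.97 and 12.5 times on WT 1 to 4, with both slide 1 arrays far above both slide 2 arrays in each genotype. Mast cell and basophil markers summed to 31.4, 33.5, 8.28 and 13.2 on EP2KO 1 to 4 and to 19.3, 12, 2.9 and 3.57 on WT 1 to 4. The summed signal of T and NK cell markers was 10.5 and 10.8 on the slide 1 arrays of EP2KO and 6.65 and 9.6 on those of slide 2, against 23.3 and 21.2 on slide 1 and 7.33 and 7.56 on slide 2 in WT. Eosinophil markers summed to 18.8, 19.4, 6.66 and 5.9 on EP2KO 1 to 4 and to 16.7, 16.2, 4.88 and 9.9 on WT 1 to 4. Endothelial markers went the other way, with sums of 2.8, 2.88, 16.7 and 16.1 on EP2KO 1 to 4 and of 2.71, 2.51, 8.39 and 11.9 on WT 1 to 4. Dendritic cell markers had higher sums but lower median centred log2 signals on slide 2. The part of these cells in the slide difference of the receptors was not tested.

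The Gi-coupled receptors were Ptger3 and Ptgdr2. Ptger3, which encodes EP3, had signals of 130, 246, 67.1 and 12.4 on EP2KO 1 to 4 and of 231, 24.7, 262 and 398 on WT 1 to 4 by probe A_51_P520718. Probe A_55_P1975481 gave 46.1, 70.8, 16.3 and 9.13 on EP2KO 1 to 4 and 67.8, 8.58, 63.9 and 90.4 on WT 1 to 4. By both probes EP2KO 3, EP2KO 4 and WT 2 were the lowest arrays, and of the dimmer probe the values on EP2KO 4 and WT 2 were not called well above background. Across the 8 arrays the scaled log2 values of the probes correlated at r = 0.97, which describes 2 probes of 1 transcript on shared arrays.

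The genotype difference in Ptger3 had opposite signs on the slides. The brighter probe gave 0.98 on slide 1 and -3.23 on slide 2, and the dimmer one 0.98 and -2.39. The test of the difference between slides gave -4.21 ± 1.71 (SE, limma adjusted p = 0.231), where 0.0145% of features were called. Over both slides the difference was -1.127 ± 1.095 (SE, limma adjusted p = 1; 0.992 blocked on the slide; exact permutation p = 0.429). Without EP2KO 4 it was -0.23, and without WT 2 it was -1.90.

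**Figure D2:**
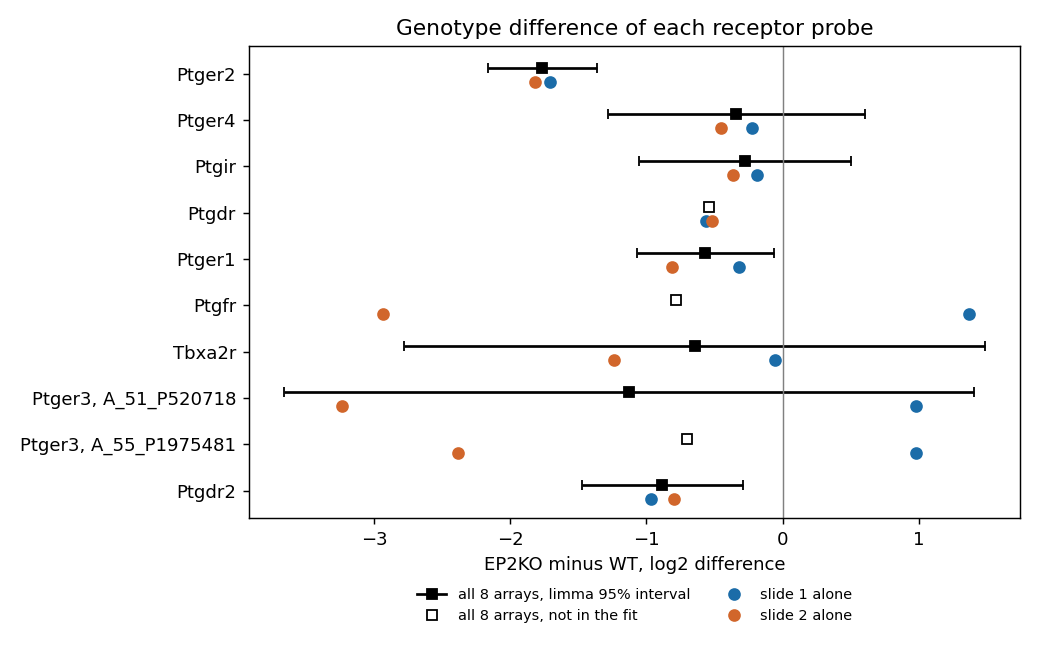
EP2KO minus WT log2 difference of each receptor probe. Filled squares are the 7 tested receptors with the limma 95% interval, open squares are probes outside the fit, and circles are each slide alone. Intervals are not adjusted for the number of features. They exclude 0 for Ptger2 (-2.17 to -1.36), Ptger1 (-1.07 to -0.06) and Ptgdr2 (-1.47 to -0.29). Ptger1 and Ptgdr2 passed the filter only through WT, so their intervals support nothing. For Ptger2 and Ptgdr2 the slides are close together, while Ptger3 and Ptgfr lie on opposite sides of 0 on the slides.

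Fibroblast and mesothelial markers had the same low arrays as Ptger3. Their median log2 signal, centred per gene, was 0.31, 1.16, -0.88 and -3.19 on EP2KO 1 to 4 and 0.96, -1.11, 1.34 and 1.52 on WT 1 to 4. All 12 markers of the list were detected on every array, and their summed signal was 4.46 to 92.9 times the 75th percentile in EP2KO and 21.8 to 139 times in WT. Across the 8 arrays this median and the brighter Ptger3 probe correlated at r = 0.98. The genes whose slide-centred signal was most like that of Ptger3 were Lamb1 and Adamts2, a laminin chain and a procollagen peptidase, both at r = 0.997. The part of stromal RNA in the Ptger3 values was not tested. Ptgfr (FP, probe A_52_P153019) had signals of 19.8, 29.6, 2.18 and 2.62 on EP2KO 1 to 4 and 9.45, 6.43, 26.6 and 17.8 on WT 1 to 4. It was well above background on EP2KO 1, EP2KO 2, WT 3 and WT 4 only. The mean scaled log2 value of Ptgfr was higher by 1.37 on slide 1 and differed by -2.93 on slide 2, EP2KO minus WT. The 4 values not well above background were included.

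**Figure D3:**
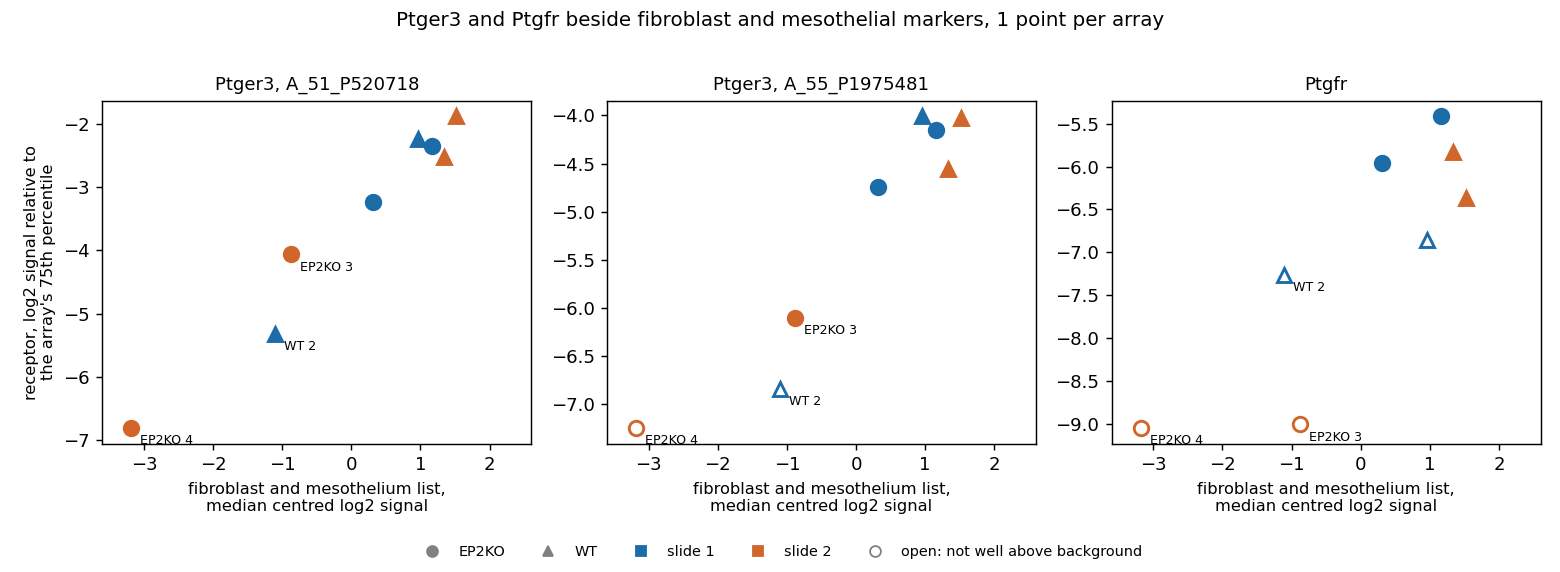
Log2 signal of both Ptger3 probes and of Ptgfr, relative to the array's 75th percentile, against the median centred log2 signal of 12 fibroblast and mesothelial markers on the same array. Circles are EP2KO, triangles WT, colours slides, and open symbols were not well above background. EP2KO 3, EP2KO 4 and WT 2, labelled, are the 3 arrays lowest in the markers and in both Ptger3 probes.

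Ptgdr2 encodes DP2, the prostaglandin D2 receptor known from eosinophils, basophils and type 2 T cells. Its probe A_55_P2130463 had signals of 18.5, 10.6, 8.86 and 13.3 on EP2KO 1 to 4, against 23.8, 21.9, 23.2 and 21.6 on WT 1 to 4. All 4 WT arrays were well above background and in EP2KO only EP2KO 1 was. Before scaling every EP2KO signal was below every WT signal, and after scaling EP2KO 1 (1.51% of the 75th percentile) lay between WT 4 (1.47%) and WT 3 (1.54%). The log2 difference was -0.88 ± 0.25 (SE), with an unadjusted limma p of 0.00873 and an adjusted p of 1 (0.237 blocked on the slide). It was -0.97 on slide 1 and -0.80 on slide 2. With quantile normalization it was -0.51, with an unadjusted limma p of 0.176, and with normexp background correction that p was 0.161. The Ptgdr2 value rests partly on background, since 3 EP2KO arrays were not well above it. Its probe passed the filter only through WT, the higher group, so its p-values are a description and support nothing.

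Markers of cells that carry DP2 were set beside Ptgdr2. T and NK cell markers summed to 6.65 to 10.8 times the 75th percentile in EP2KO and 7.33 to 23.3 times in WT, with 14 or 15 of 15 detected in EP2KO and 15 in WT. The median log2 difference of this list was -0.68 over 15 tested members. Eosinophil markers summed to 5.9 to 19.4 times in EP2KO and 4.88 to 16.7 times in WT, with 5 or 6 of 7 detected in EP2KO and 6 in WT, and had a median difference of 0.01 over 6. Mast cell and basophil markers summed to 8.28 to 33.5 times in EP2KO and 2.9 to 19.3 times in WT, with 8 to 10 of 10 detected in EP2KO and 9 or 10 in WT, and had a median difference of 1.62 over 9. Of these 9, 7 were above 0 and 2 below, where 56.6% of all features lay below 0. The 2 below were the basophil protease Mcpt8 (-0.51, well above background on 3 of 4 EP2KO arrays) and Hdc (-0.28). The part of T and NK cells, eosinophils, mast cells and basophils in the Ptgdr2 value was not tested.

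Across the tested receptors the log2 difference lay below 0 for 7 of 7, with a median of -0.65, including Ptger1 and Ptgdr2, which had passed only through WT, so the count is a description and supports nothing. Among all features 56.6% lay below 0 and the median was -0.03. In the main fit and those with the slide or the replicate number as a block, Ptger2 was the only receptor called between the genotypes. It was called there only with the slide as a block. The log2 ratio of Ptger2 to each other receptor well above background on all 8 arrays was also taken within each array, where scaling between arrays cancels. It is given as a description and no p-value of it is used, since it was added after the Ptger2 values had been seen. Relative to Ptger4 the ratio averaged -0.92 ± 0.65 in EP2KO and 0.51 ± 0.50 in WT (SD, n = 4 each), a log2 difference of -1.43 (-1.48 on slide 1 and -1.37 on slide 2). Relative to Ptgir the difference was -1.49 (-1.52 on slide 1 and -1.45 on slide 2). For both, all EP2KO values lay below all WT values. The Ptger2 values alone already did not overlap, so this was largely set in advance and adds no support. The share of all features with such a ratio was not taken. Relative to Tbxa2r (-1.12) and Ptger3 (-0.64) the values of the genotypes overlapped.

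**Figure D4:**
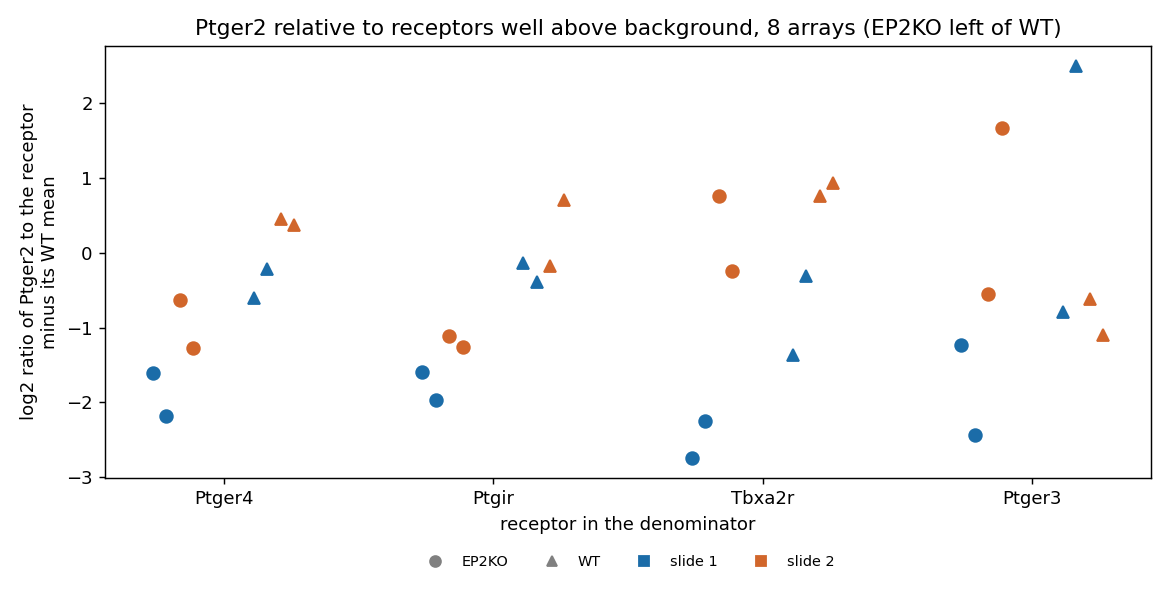
Log2 ratio of Ptger2 to each other receptor well above background on all 8 arrays, within an array and minus the WT mean of that ratio, with 1 point per array, EP2KO left of WT, coloured by slide. EP2KO and WT do not overlap for the ratios to Ptger4 and Ptgir, and overlap for those to Tbxa2r and Ptger3.

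Genes with a pattern like Ptger2 over the 8 arrays were sought by the correlation of log2 signals centred on their slide, among 14473 named genes. The highest were Usp10 (r = 0.98), a deubiquitinase, Dus4l (0.97), the non-coding gene 4930431P03Rik (0.97), Gpd1 (0.97), a glycerol phosphate dehydrogenase, and Rraga (0.97), a GTPase of nutrient sensing. Their log2 differences between EP2KO and WT were -0.23, -0.34, -1.64, -0.86 and -0.39. Of these genes, only 4930431P03Rik lies on chromosome 14, as Ptger2 does. The part of the targeted locus in its signal was not tested. For Ptger4 the highest were Ccdc92 and Crtam (0.98 and 0.97), and for Ptgir Zfand6 and Septin7 (0.97 and 0.96). For Ptger1 they were Ets2 and Speer5-ps1 (0.99 and 0.97), for Tbxa2r Las1l and Chst3 (0.98 each) and for Ptgdr2 Bcl9l and H2-Q5 (1.00 and 0.99). These correlations describe arrays that share slides and genotypes: a genotype difference in both genes enters them, and some values of Ptger1 and Ptgdr2 were not well above background.

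In 6 lists of surrounding genes, 0 members passed the limma test in either direction, unblocked or blocked on the slide. Beside the counts below stand the shares of all features: 56.6% lay below 0, and an unadjusted p under 0.05 was reached by 1.98% unblocked and by 7.34% blocked on the slide. Of 17 tested genes of prostanoid synthesis, transport and breakdown, 5 were above and 12 below 0, with a median difference of -0.06; 0 higher and 1 lower had an unadjusted p under 0.05, and 0 and 2 blocked on the slide. The smallest unadjusted p belonged to Hpgd (-1.03 ± 0.43, SE), which inactivates prostaglandins, Tbxas1 (-0.30 ± 0.14), the thromboxane synthase, and Ptges2 (-0.17 ± 0.12), a prostaglandin E synthase. Among 22 tested G proteins, arrestins and receptor kinases 12 were above and 10 below 0 (median 0.04; 0 with an unadjusted p under 0.05, blocked or not). Arrb1, an arrestin, had 0.19 ± 0.11, Rgs16, a regulator of G protein signalling, -1.65 ± 1.03, and Gnai1, a Gi subunit, -0.79 ± 0.90. Rgs16 and Gnai1 had opposite signs on the slides, with 0.96 and 1.33 on slide 1 and -4.25 and -2.92 on slide 2.

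The cAMP machinery downstream of Gs had 16 members above and 14 below 0 of 30 tested (median 0.02; 0 higher and 1 lower at an unadjusted p under 0.05, and 1 and 1 blocked on the slide). Adcy5, an adenylyl cyclase, had -0.80 ± 0.27 (SE), Crem, a cAMP-responsive transcription factor, -0.28 ± 0.18 and Pde4d, a cAMP phosphodiesterase, -0.38 ± 0.31. Among 29 tested cAMP-responsive genes 13 were above and 16 below 0 (median -0.07; 1 higher and 0 lower at an unadjusted p under 0.05, and 1 and 2 blocked on the slide). Thbs1, which encodes thrombospondin 1, had 1.27 ± 0.54 (limma adjusted p = 1; 0.0616 blocked on the slide), Fosl2 -0.21 ± 0.12 and Per1 0.43 ± 0.28.

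Other receptors were compared as well. Of 13 tested Gs-coupled receptors outside the prostanoid family 6 were above and 7 below 0 (median -0.02; 1 higher and 0 lower at an unadjusted p under 0.05, and 1 and 1 blocked on the slide), with Calcrl, the receptor for CGRP and adrenomedullin, at 0.42 ± 0.16 and the VIP receptors Vipr2 and Vipr1 at 0.57 ± 0.26 and -1.33 ± 0.92 (SE). Of 20 tested receptors for other lipid mediators 5 were above and 15 below 0 (median -0.23; 0 at an unadjusted p under 0.05, and 0 higher and 3 lower blocked on the slide). Cysltr2, a leukotriene receptor, had -0.25 ± 0.18, Lpar5, a lysophosphatidic acid receptor, 0.26 ± 0.19, and Gpr183, an oxysterol receptor, -0.50 ± 0.39. None of these had an adjusted p under 0.05.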

How the data were processed

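RNA of LPS-treated macrophages was amplified from 0.5 µg and labelled with Cy3, per the labels' protocols. The deposited scanner files hold a linear intensity per spot, extracted with Feature Extraction 10.7.1.1 per the file headers, whereas version 9.1 stands in the submitters' processing notes. The processed intensity is background-corrected within the array, with no scaling across arrays recorded. In the series table the authors deposited the intensities were identical (largest log2 difference 0).

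Log2 processed signal minus each array's 75th percentile was used. Control spots (1377 of 44397) were left out, outlier-flagged spots set missing, and spots of a probe averaged. Of 39429 gene probes, 27508 were named through RefSeq transcripts of GRCm38.p6. The array design states mm9, so no array coordinates are given. Named genes followed a fixed rule, apart from single cell type markers. It took all receptors, and per pathway list the members past the threshold or otherwise the 3 smallest p. It also took the 5 (Ptger2) or 2 (others) most correlated genes, and the 3 features on either side of the threshold. Among the latter, Cdhr1 (EP2KO minus WT -4.31, limma adjusted p = 0.0865) came next after Ptger2. The written name Fam213b is a former symbol and was not matched. The test between EP2KO and WT used lmFit and eBayes of limma 3.58.1 under R 4.3.3, Benjamini-Hochberg adjusted over all 20736 features, two-sided. The fit was tested on simulated data. Slide and replicate number were alternative blocks. Same-numbered arrays deviated together (r across genes 0.74, 0.12, 0.55 and 0.43), which passes the pairing rule, though each pair also shares a slide; within slides r was -0.39 and -0.10. Members and lists were chosen with earlier results of these data known. The ratios of Ptger2 to other receptors were added after values had been seen.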

Additional observations from a re-analysis of the deposited data

How the results depend on the processing

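Alternatives covered background correction, scaling, the series table, filters, the probe of a gene, blocks, array weights, the model of the variance and leaving out single arrays. Normexp used median in place of mean spot signals, which are not among the columns. Each slide alone was added after seeing the data. Ptger2 stayed lower in EP2KO in all 22, from -1.86 to -1.57, with limma adjusted p of 0.0328 to 0.432. It passed the threshold with quantile normalization (-1.73, adjusted p = 0.0466), with only probes well above background on all 8 arrays (-1.76, 0.0479) and with the slide as a block (-1.76, 0.0328). With each replicate left out it ran from -1.86 to -1.64 and did not pass. The limma count of features past the threshold, 2, became 4 with the slide as a block, 0 with the replicate block (1130 at an unadjusted p under 0.05), 0 on slide 1 alone (2834 unadjusted) and 341 on slide 2 alone. With a replicate left out it ran from 0 to 4: 0 without WT 1, WT 3, EP2KO 2, EP2KO 3 or EP2KO 4 (356 to 460 unadjusted), and 4 without WT 4 or EP2KO 1. The replicate block changed no call of a receptor. Ptger3 was at 0.98 on slide 1 alone, the only reversed sign among the 7 tested receptors, and the cause was not tested (Ptgfr, outside the fit, was at 1.37 there and at -0.78 over both slides); no receptor other than Ptger2 passed in any alternative. Scaling to the median shifted the median difference of all features by 0.14, and each receptor by the same amount. Without slide centring, 3 of the 5 genes most like Ptger2 stayed among its top 5 (4930431P03Rik, Rraga and Gpd1). Signal over background limits Ptgdr, Ptgfr, Ptgdr2 and Ptger1.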

Other observations

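Centred on their slide, the signals of the receptors correlated with each other across the 8 arrays to unequal degrees, given as a description with no test. Genotype was not centred, so a genotype difference in both genes enters the values. Among receptors well above background on all 8 arrays, Ptger2 and Ptger4 correlated at r = 0.77, Ptger4 and Ptgir at 0.15 and Ptgir and Tbxa2r at 0.14. The order depends on the centring: without it, Ptger2 and Ptger4 correlated at 0.37, Ptger4 and Ptgir at 0.79 and Ptgir and Tbxa2r at 0.77. Without slide centring, Ptger4 and Tbxa2r correlated at 0.95, against 0.64 with it. Among the 14 groups of 4 arrays formed by the tested receptors, 0 held a value far from the other 3 by Dixon's test, where chance gives about 0.7. Each group held 2 arrays from each slide, so a slide difference widens its spread and can hide such a value. The count of 0 therefore does not show that no array stood apart. Ptger3 in WT came nearest, with a scaled log2 value of -5.32 on WT 2 and -2.52 to -1.89 on the other 3 WT arrays.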
